A study of Homo sapiens with 42 samples.

Results

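Collagens and other extracellular matrix genes were described here as a set of 41 genes, out of 19775 genes measured, in cell lines of squamous carcinoma of the head and neck (HNSCC) and in HaCaT keratinocytes. The members are 5 fibrillar collagens, 9 basement membrane components, 7 other collagens, 4 proteoglycans, 7 matricellular proteins, 3 microfibril proteins, 3 crosslinking enzymes and 3 inhibitors of matrix proteases. They were taken by name, and where several probe sets are annotated to a member alone, the one with the greatest average signal in the 42 arrays stands for it. All 41 were measured, and 35 had a mean above 5.13, the median of all values, which serves below as the mark of a dim signal.

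The arrays form 14 groups of 3. SCC25, SQ20B and SCC61, which the study lists as HPV-negative, and SCC047, SCC090 and 93VU147T, listed as HPV-positive, each have 3 arrays of cells given cetuximab at 100 nM for 24 hours and 3 control arrays. Cetuximab is an antibody that keeps ligands from binding EGFR. The labels give the controls no treatment, while the methods name PBS. SCC1 has cetuximab arrays alone, and HaCaT, an immortalized line of skin keratinocytes kept in another medium, has control arrays alone. The labels do not tie arrays of a group to separate cultures, so the errors and p-values below cover differences among arrays and may be technical in origin.

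The matrix outside cells has a basement membrane, a thin sheet under epithelia built of laminins, type IV collagen, nidogen and related proteins, and an interstitial matrix whose strength comes from fibrillar collagens. Fibrillar collagens are mostly products of fibroblasts, while epithelial cells make much of their own basement membrane. Carcinoma cells in culture can express genes of either kind, and matricellular proteins such as SPARC and tenascin C modify how cells attach rather than bear load.

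The type IV collagen genes lie in head-to-head pairs, so 2 genes are read in opposite directions from neighbouring start sites. Their start regions are shown because the 4 genes are described in pairs below, and no link between these sequences and the changes was tested. RefSeq windows on GRCh38.p14, from 250 bases before to 50 bases after a start, were at hand for 31 of the 41 members. The start sites of COL4A1 and COL4A2 on chromosome 13 are 127 bases apart and their windows share 226 bases. Those of COL4A6 and COL4A5 on chromosome X are 380 bases apart and their windows share 121 bases. A second COL4A6 start, whose window is not shown, lies 1416 bases from that of COL4A5. Capitals mark CCAAT and GGGCGG on either strand, so the reverse complement of each is in capitals too. Sequences run 5′ to 3′ in the direction of each gene.
COL4A1, chr13:110307108-110307407, minus strand: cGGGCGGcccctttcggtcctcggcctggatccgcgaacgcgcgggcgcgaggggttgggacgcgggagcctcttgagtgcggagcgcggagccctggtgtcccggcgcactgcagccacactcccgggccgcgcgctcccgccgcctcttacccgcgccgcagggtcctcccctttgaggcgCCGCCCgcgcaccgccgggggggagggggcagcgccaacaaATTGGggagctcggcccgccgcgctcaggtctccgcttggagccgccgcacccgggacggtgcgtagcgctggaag
COL4A2, chr13:110307034-110307333, plus strand: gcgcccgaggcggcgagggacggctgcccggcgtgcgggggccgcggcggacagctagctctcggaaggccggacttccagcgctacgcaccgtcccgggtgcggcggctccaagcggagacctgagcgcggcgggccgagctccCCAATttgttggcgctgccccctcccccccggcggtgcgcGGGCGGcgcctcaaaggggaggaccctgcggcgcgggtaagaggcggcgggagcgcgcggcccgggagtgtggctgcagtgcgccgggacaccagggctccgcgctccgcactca
COL4A6, chrX:108439409-108439708, minus strand: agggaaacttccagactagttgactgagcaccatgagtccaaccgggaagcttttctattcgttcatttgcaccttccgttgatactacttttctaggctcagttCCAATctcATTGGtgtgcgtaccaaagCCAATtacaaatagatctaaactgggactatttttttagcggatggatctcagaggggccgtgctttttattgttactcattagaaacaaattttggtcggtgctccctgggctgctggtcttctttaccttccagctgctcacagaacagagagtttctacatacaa
COL4A5, chrX:108439588-108439887, plus strand: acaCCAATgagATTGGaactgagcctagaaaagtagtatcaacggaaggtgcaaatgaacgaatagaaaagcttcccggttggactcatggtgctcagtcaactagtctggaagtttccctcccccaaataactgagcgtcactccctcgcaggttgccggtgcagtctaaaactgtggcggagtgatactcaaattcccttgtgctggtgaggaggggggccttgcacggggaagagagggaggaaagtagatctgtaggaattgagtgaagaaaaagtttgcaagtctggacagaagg
The COL4A1 and COL4A2 windows had 76.7% and 77.7% G and C, against a median of 58.7% over 35116 windows, and those of COL4A5 and COL4A6 had 49.3% and 43.7%. CCAAT was present in all 4 windows shown and in 34.6% of all windows. The windows of a pair overlap, so these are not separate finds. The CCAAT and GGGCGG of COL4A2 lie on bases that are in capitals for COL4A1 too, as those of COL4A5 are for COL4A6. GGGCGG was present in the COL4A1 and COL4A2 windows and in 45.0% of all windows, and was not found in the other 2 shown. TATAAA, searched on both strands, was in none of the 4 and in 11.5% of all windows.

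Epithelial markers were present in every line. Of 8 measured epithelial markers, 7 or 8 lay above 5.13 in every control group, and among 9 fibroblast markers PDGFRA, DPT, TCF21 and MEOX1 had group means of at most 5.06 throughout. The other 5, PDGFRB, THY1, FAP, PDPN and ACTA2, all lay above 5.13 in SCC25 and SCC61, with FAP at 5.98 and PDPN at 8.24 in SCC25. Over the control groups 2 to 5 of the 9 lay above 5.13, with summed log2 levels of single control arrays from 40.33 in SCC090 to 50.86 in SCC047 and up to 50.47 in SCC25. Their part in the matrix levels of SCC25 and SCC61 was not tested. By dates in the labels' array file names, 35 arrays form 1 batch, 4 form another (the SCC1 arrays and SQ20B control replicate 3), and the 3 HaCaT arrays form the last, so batch and line cannot be told apart for HaCaT. In the largest batch the control arrays carry lower serial numbers than the cetuximab arrays, so order and treatment cannot be told apart. SCC090 control replicate 1 stood farthest from its group, with a root mean square deviation of 0.195 over all genes against 0.0672 to 0.148 for every other array.

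Matrix genes set the lines apart strongly before treatment. The range of the 7 untreated line means had a median of 3.28 log2 units over the members and 0.98 over all genes, and it exceeded 2 log2 units for 28 of 41 members (68.3%) against 17.4% of all genes. Differences among lines passed limma's moderated F test (adjusted p under 0.05) for 40 of 41 members, against 78.6% of all genes. The exception, by the probe set used, was VCAN, the proteoglycan versican. In the untreated comparisons that follow, a gene was called at an adjusted p under 0.05 and a difference of at least 1 log2 unit. Across the lines, 20 members were above 5.13 in all 7, and 2 were above it in none. In arrays of whole cultures, fewer cells of a type and less RNA per cell cannot be told apart.

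**Figure D1:**
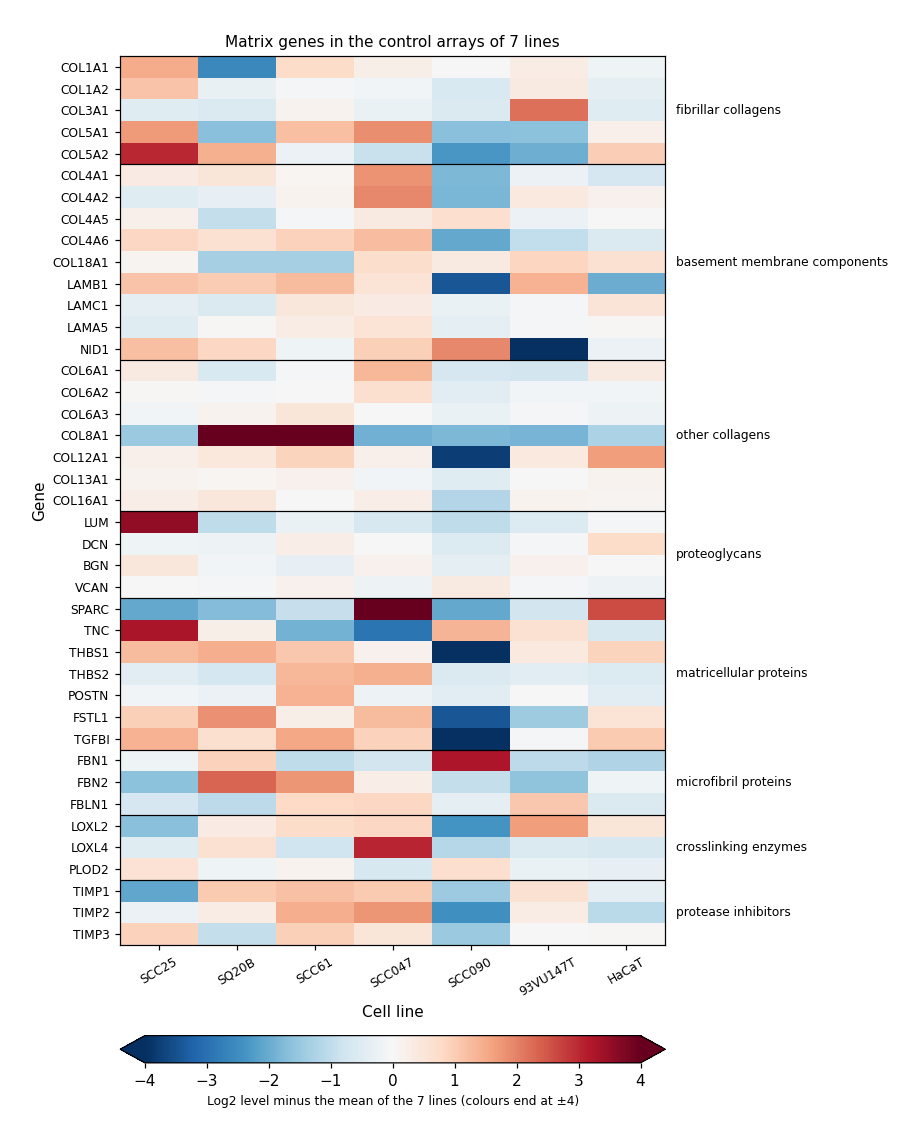
Log2 level of each matrix gene in control arrays minus its mean over the 7 lines, with genes in rows grouped by role and lines in columns. Red is above and blue below the mean of the lines, and SCC090 is the lowest line for 24 of the 41 genes.

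SCC090 had low levels of many matrix genes. It was the lowest line for 24 members, a place it held for 26.5% of all genes, and 24 members were above 5.13 there against 31 to 34 in each other line. Of all genes 63.6% were above 5.13 there and 64.1% to 66.4% in each other line. Against the mean of the other 5 cancer lines, 20 members were lower and 3 were higher, where 6.12% and 7.62% of all genes were called lower and higher. TGFBI, a secreted adhesion protein induced by TGF-beta, stood at 6.03, 5.54 and 5.63 on its 3 SCC090 control arrays, while the means of the other lines lay between 11.21 and 12.83. The difference for TGFBI from the mean of the other 5 lines was -6.43 (SE 0.07, adjusted p = 3.98e-23) in log2 units, by limma, as for all differences, standard errors (SE) and adjusted p-values given below. THBS1, or thrombospondin 1, differed by -6.13 (SE 0.14, adjusted p = 7.33e-19). LAMB1, a laminin chain, read 5.61, 4.18 and 4.47 and differed by -4.49 (SE 0.19, adjusted p = 2.25e-14). COL12A1, which attaches to the surface of collagen fibrils, differed by -4.20 (SE 0.15, adjusted p = 1.66e-15). FSTL1, a secreted glycoprotein, differed by -4.00 (SE 0.09, adjusted p = 4.21e-19). In these 5 genes no SCC090 array reached the level of any other cancer line.

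The exceptions in SCC090 were a microfibril gene, a basement membrane gene and a matricellular gene. FBN1, which encodes the main protein of microfibrils, read 9.99, 9.15 and 9.46 there, and its mean in each other line was 7.24 or less. The difference was 3.64 (SE 0.11, adjusted p = 1.10e-16). NID1, or nidogen, which links laminin to type IV collagen, differed by 2.27 (SE 0.10, adjusted p = 5.60e-14). TNC, or tenascin C, differed by 1.49 (SE 0.19, adjusted p = 9.64e-07), and its SCC090 control arrays spread widely, at 9.87, 8.44 and 8.74.

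SCC25 had the highest means of COL1A1, COL1A2 and COL5A2 among the untreated lines, while COL5A1 was highest in SCC047 and COL3A1 in 93VU147T. In SCC25, 11 members were higher and 5 lower than in the other 5 lines (3.95% and 3.21% of all genes), and 4 of 5 fibrillar collagens were among the higher. COL5A2, a chain of the type V collagen found inside type I fibrils, read 9.32, 9.26 and 8.98 and was higher by 3.81 (SE 0.11, adjusted p = 1.51e-16). COL1A1, a chain of type I collagen, read 9.54, 9.47 and 9.59 and was higher by 1.74 (SE 0.10, adjusted p = 1.24e-11). LUM, or lumican, a proteoglycan that binds collagen fibrils, read 7.69, 7.61 and 7.32 against means of at most 3.92 elsewhere. By this probe set lumican was therefore above 5.13 in SCC25 alone among the untreated lines. The second LUM probe set had means of 3.63 in SCC25 and 3.68 in HaCaT. TNC was also highest there, at 10.96, 10.95 and 10.92. TIMP1, an inhibitor of metalloproteinases, was instead lowest in SCC25, at 7.64, 7.68 and 7.77, a difference of -2.55 (SE 0.07, adjusted p = 1.51e-16). LOXL2, an enzyme that crosslinks collagen, was lower in SCC25 by a difference of -1.91 (SE 0.07, adjusted p = 3.61e-15).

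SQ20B and SCC61 shared high COL8A1, which encodes a short-chain, network-forming collagen. Its arrays read 9.69, 9.15 and 9.65 in SQ20B and 9.24, 9.36 and 9.64 in SCC61, and the mean was 4.00 or less in the other 5 lines, below the mark of a dim signal. FBN2, the second fibrillin, was likewise highest in these lines, at means of 9.25 and 8.69. In SQ20B 6 members were higher and 8 lower than in the other lines (4.17% and 5.26% of all genes). COL1A1 was among the lower, at 5.28, 5.55 and 5.57 and a difference of -3.14 (SE 0.10, adjusted p = 7.24e-16). The second COL1A1 probe set had means of 7.20 in SQ20B and 7.14 to 7.59 in the other lines. The third was lowest in SQ20B, at 4.84, and highest in SCC25, at 7.83, and the remaining COL1A1 probe sets were dim in every line. In SCC61 12 members were higher and 4 lower (5.46% and 5.75% of all genes), and all 3 TIMP genes were among the higher.

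SCC047 was the highest line for 11 members, where 15.4% of all genes had it highest. There 14 members were higher and 3 lower (5.8% and 2.9% of all genes). SPARC, a collagen-binding matricellular protein, read 10.73, 10.71 and 10.73 in SCC047, and all other cancer lines had means of 5.18 or less. The difference was 6.30 (SE 0.16, adjusted p = 1.11e-17). COL4A1 and COL4A2 were both highest in SCC047, above the mean of the other 5 lines by 2.02 (SE 0.09, adjusted p = 1.68e-13) and by 2.32 (SE 0.09, adjusted p = 2.21e-14). LOXL4, a further crosslinking enzyme, read 10.03, 9.96 and 9.70, against means of at most 7.45 elsewhere. TIMP2 was highest there too, at 11.15, and lowest in SCC090, at 6.95.

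In 93VU147T 5 members were higher and 8 lower (4.38% and 4.87% of all genes). NID1 read 3.38, 3.39 and 3.01, far into the dim range, while every other line had a mean of at least 7.49. The difference was -5.42 (SE 0.10, adjusted p = 2.00e-19). COL3A1, the type III fibrillar collagen, was above 5.13 in this line alone, with a mean of 6.59. LOXL2 was highest there, at 9.17.

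In HaCaT 32 of the 41 members were above 5.13, against 24 to 34 in the cancer lines, and 64.9% of all genes were above it in HaCaT. Of the members 5 were higher and 4 lower than the mean of the 6 cancer lines, and 4.11% and 4.26% of all genes were. SPARC read 8.62, 8.56 and 8.47 and was higher by 3.06 (SE 0.19, adjusted p = 2.37e-11). COL12A1 was higher by 1.94 (SE 0.18, adjusted p = 1.74e-08), and TGFBI, COL5A2 and THBS1 by 1.23, 1.14 and 1.03. LAMB1 was lower, at 6.21, 6.40 and 6.08 and a difference of -2.30 (SE 0.23, adjusted p = 3.56e-08), and COL8A1, FBN1 and TIMP2 differed by -1.49, -1.39 and -1.27. DCN, the proteoglycan decorin, had its highest mean in HaCaT, at 6.96, and did not reach 1 log2 unit over the cancer lines. HaCaT replicates 1 and 2 share a serial number and entered the fit as 1 value, so HaCaT has n = 2.

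Fibrillar and basement membrane genes did not rank the lines alike. The median deviation of the 5 fibrillar collagens from the mean of the 7 lines was 1.48 log2 units in SCC25 and 0.29 in 93VU147T, above that of the 9 basement membrane components there (0.20 and -0.08). In the other 5 lines the fibrillar median was the lower, with -0.10 against 0.71 in SCC047 and -0.62 against -0.40 in SCC090. Medians over all genes lay between -0.06 and 0.03. Within the basement membrane list, LAMC1 and LAMA5, a laminin gamma and a laminin alpha chain, varied by 1.08 and 1.04 log2 units over the lines, against 6.40 for NID1 and 4.81 for LAMB1. These are descriptions of short lists with no test.

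With cetuximab, members passed the test in 5 of the 6 lines. By limma at an adjusted p under 0.05, members were higher in 17 and lower in 0 cases of 41 in SCC25 (8.66% and 7.3% of all genes), with 18 and 2 at an unadjusted p under 0.05. In SQ20B 20 were higher and 3 lower (18.4% and 14.9%), and in SCC61 12 and 13 (24.4% and 19.8%). In SCC047 6 were higher and 11 lower (17.3% and 19%), and in 93VU147T 6 and 15 (15.8% and 18.8%). In SCC090 none passed (0.516% and 0.885% of all genes did), and 13 had an unadjusted p under 0.05. Changes differed among the lines for 36 of 41 members, against 59% of all genes. Of the members, 15 were called higher only, 12 lower only and 13 both ways in different lines, where 21.3%, 24.1% and 25.9% of all genes were. By the probe set used, VCAN was called in no line, as were 28.6% of all genes. The SQ20B count stayed at 23 without SQ20B control replicate 3, the array of another batch. The SCC25 count was 11 without SCC25 control replicate 3. The SCC090 count was 10 without SCC090 control replicate 2 and 1 without SCC090 control replicate 3. Markers moved as well. In SCC61 4 of 7 mesenchymal transition genes were lower and 1 higher (median change -0.59), in 93VU147T 4 of 8 epithelial markers were higher and 1 lower (median 0.57), and in SQ20B 4 were higher and 3 lower (median 0.43). In SCC047 4 of 8 epithelial markers were higher and 0 lower (median 0.09). For the mean of the 6 lines, 4 epithelial markers were higher and 2 lower (median 0.32), beside 22.8% and 23.1% of all genes. In that mean 4 of 7 mesenchymal transition genes were lower and 0 higher (median -0.17), and 2 of 9 fibroblast markers were lower, near the share of all genes. The part of these shifts in the results on the matrix genes was not tested.

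**Figure D2:**
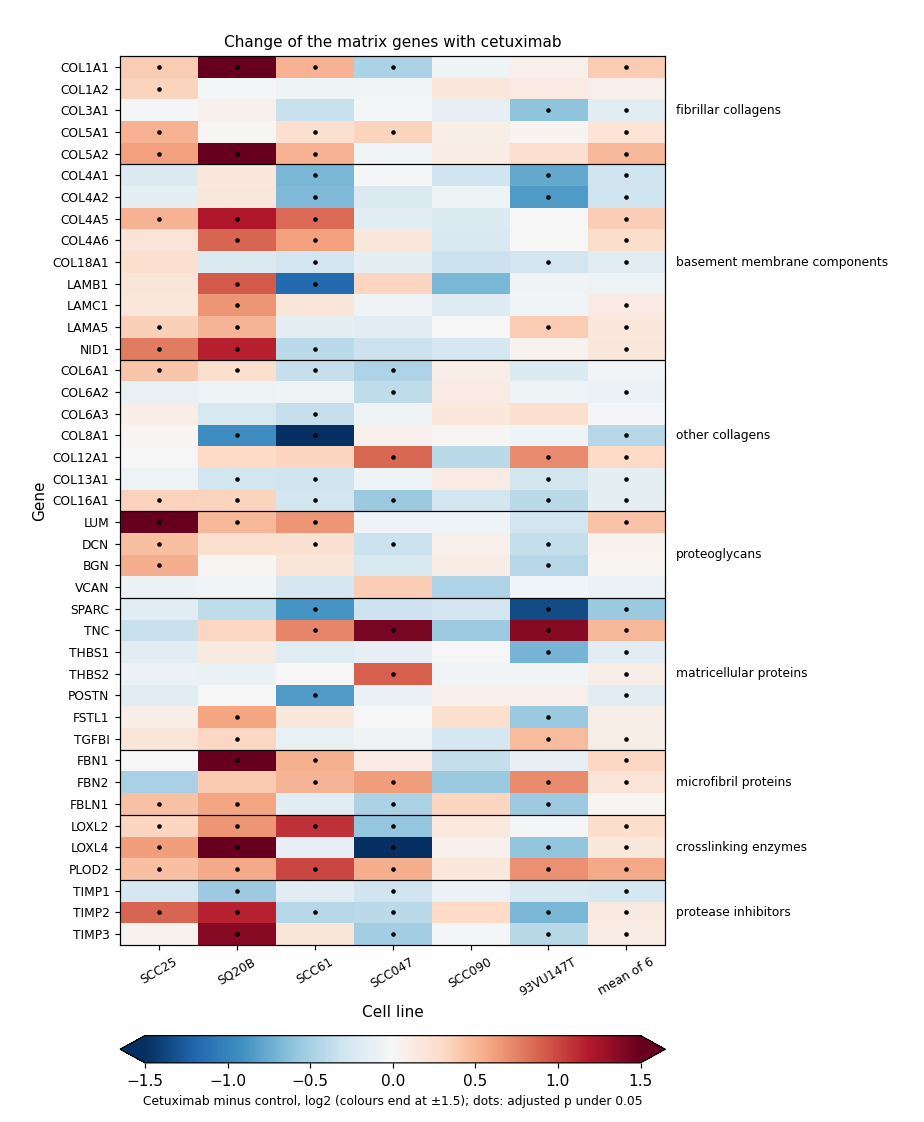
Cetuximab minus control in log2 units for each matrix gene, in rows by role, in the 6 lines and their mean, in columns. Dots mark adjusted p under 0.05. SCC25 and SQ20B are mostly red, SCC047 and 93VU147T more blue, and SCC090 has no dot.

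COL4A1 and COL4A2, the chains of the common basement membrane network, had the same sign in 6 of 6 lines, and their changes differed by at most 0.24 log2 units. In 93VU147T COL4A1 went from 8.14, 8.31 and 8.60 on control arrays to 7.69, 7.63 and 7.42 with cetuximab, and COL4A2 from 9.44, 9.73 and 10.18 to 9.02, 8.96 and 8.82. The groups did not overlap, and the changes were -0.77 (SE 0.11, adjusted p = 1.53e-06) and -0.85 (SE 0.10, adjusted p = 1.24e-07). In SCC61 the changes were -0.69 and -0.66, both called. The other 4 lines gave -0.30 to 0.16 for COL4A1 and -0.21 to 0.17 for COL4A2, with no call.

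COL4A5 and COL4A6, which code for chains of a more restricted network found in skin and other epithelia, rose in SQ20B and SCC61. COL4A5 went in SQ20B from 8.02, 7.96 and 7.85 to 9.27, 9.15 and 9.03, a change of 1.21 (SE 0.13, adjusted p = 1.45e-08). COL4A6 went there from 8.46, 8.45 and 8.43 to 9.40, 9.34 and 9.21, a change of 0.87 (SE 0.10, adjusted p = 7.44e-08). In SCC61 they rose by 0.85 (SE 0.13, adjusted p = 2.66e-06) and 0.62 (SE 0.10, adjusted p = 1.04e-05), in the same cells in which COL4A1 and COL4A2 fell. In SCC25 COL4A5 rose by 0.52 (SE 0.13, adjusted p = 0.00563), and COL4A6 changed by 0.20 (SE 0.10, adjusted p = 0.237), which was not called. The signs of the COL4A5 and COL4A6 changes were equal in 4 of 6 lines, with a largest gap of 0.34 log2 units. Untreated levels of this pair parted more, since SCC090 had the highest COL4A5 mean, at 9.55, and the lowest COL4A6 mean, at 5.82.

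**Figure D3:**
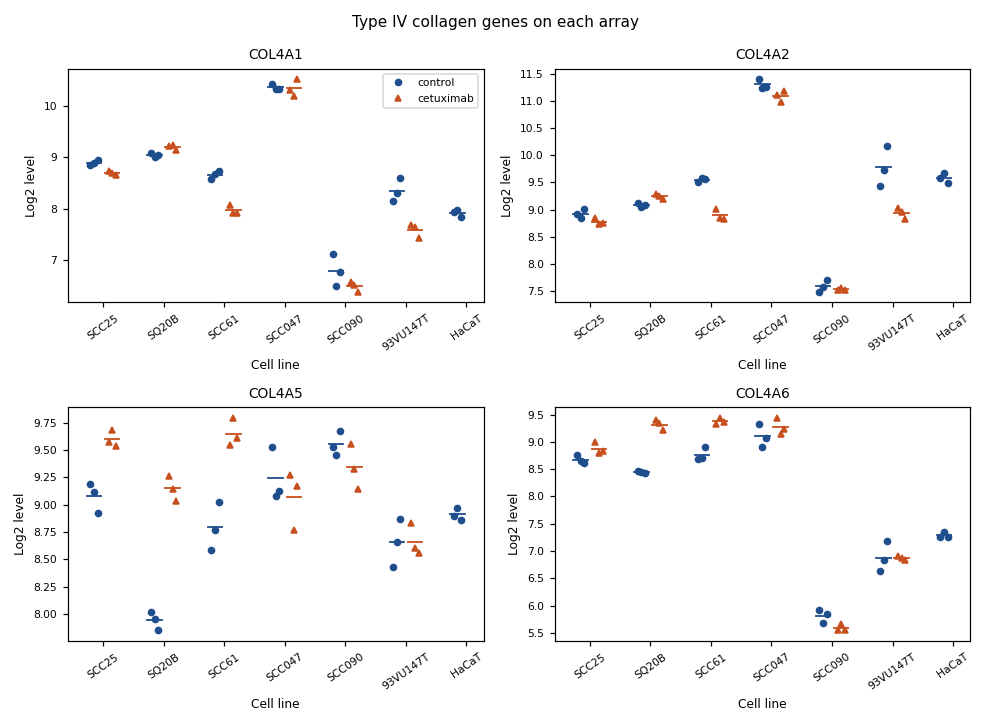
Log2 levels of COL4A1, COL4A2, COL4A5 and COL4A6 on each control (circles) and cetuximab (triangles) array by line, with bars at means of the arrays. COL4A1 and COL4A2 are lower with cetuximab in SCC61 and 93VU147T, and COL4A5 and COL4A6 are higher in SQ20B and SCC61.

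The other basement membrane genes moved by line. NID1 rose in SCC25 from 9.08, 8.88 and 8.83 to 9.85, 9.58 and 9.69, by 0.78 (SE 0.14, adjusted p = 9.71e-05), and in SQ20B by 1.17 (SE 0.14, adjusted p = 3.96e-08), and it fell in SCC61, with a change of -0.41 (SE 0.14, adjusted p = 0.0149). LAMB1 rose in SQ20B by 0.92 (SE 0.22, adjusted p = 0.00134) and fell in SCC61 from 9.37, 9.43 and 9.44 to 8.21, 8.35 and 8.18, a change of -1.17 (SE 0.22, adjusted p = 4.73e-05). LAMC1, the laminin partner of LAMB1, rose in SQ20B by 0.66 (SE 0.10, adjusted p = 2.83e-06) and was not called in SCC61, at 0.19. In SQ20B 6 of 9 basement membrane genes were higher and 0 lower, beside 18.4% and 14.9% of all genes. In SCC61 2 were higher and 5 lower, beside 24.4% and 19.8%, and in SCC047 none of the 9 passed, with 2 at an unadjusted p under 0.05.

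Every called change of a fibrillar collagen in the HPV-negative lines was a rise. In SCC25 4 of 5 were higher, in SQ20B 2 and in SCC61 3, with 0 lower in each, beside 8.66%, 18.4% and 24.4% of all genes called higher. In SCC047 COL5A1 rose and COL1A1 fell. COL5A2 went in SQ20B from 7.84, 7.47 and 7.50 to 9.29, 9.12 and 9.09, a change of 1.56 (SE 0.13, adjusted p = 3.02e-11). It rose in SCC25 by 0.61 (SE 0.13, adjusted p = 0.000822) and in SCC61 by 0.52 (SE 0.13, adjusted p = 0.00111), and both of its probe sets rose in these 3 lines. COL1A1 rose in SQ20B from 5.28, 5.55 and 5.57 to 7.35, 7.41 and 7.13, by 1.83 (SE 0.13, adjusted p = 1.17e-12). Of its 5 probe sets 3 had this sign in SQ20B and 2 the opposite, so the direction of COL1A1 holds for the probe set used. COL3A1 fell in 93VU147T, with a change of -0.60 (SE 0.14, adjusted p = 0.00116). Over the mean of the 6 lines, the median change was 0.21 log2 units for fibrillar and 0.12 for basement membrane genes, a gap of 0.09, beside -0.02 for all genes. The gap was 0.17 when dim genes were left out.

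**Figure D4:**
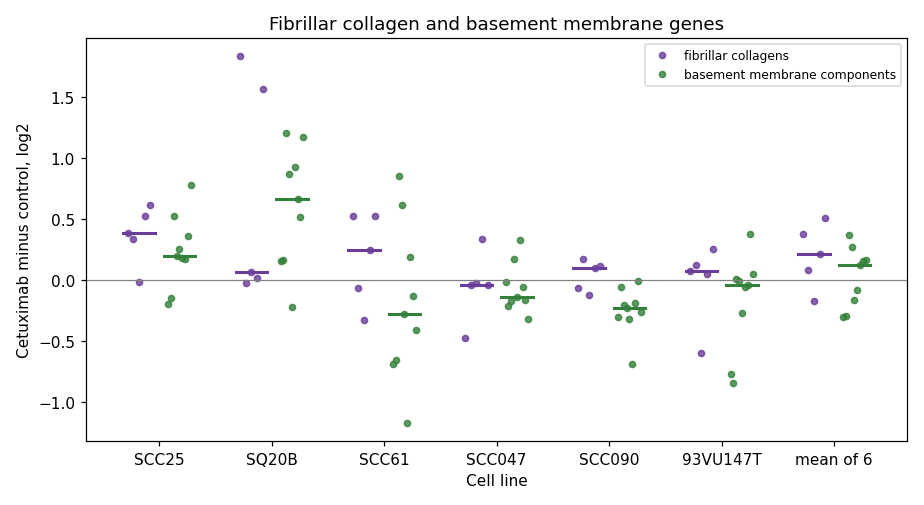
Cetuximab minus control in log2 units for the 5 fibrillar collagens and the 9 basement membrane components, by line and for the mean of 6 lines, with a point per gene and bars at list medians. In SCC61 the fibrillar median is 0.24 and the basement membrane median is -0.28, while in SQ20B they are 0.06 and 0.66.

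Among the other collagens, COL8A1 fell in the 2 lines that express it. It went from 9.24, 9.36 and 9.64 to 7.36, 8.01 and 7.70 in SCC61, a change of -1.72 (SE 0.13, adjusted p = 1.31e-12), and in SQ20B to 8.70, 8.56 and 8.44, a change of -0.93 (SE 0.13, adjusted p = 9.91e-07). In the remaining lines it was dim and changed by -0.06 to 0.07. COL12A1 rose in SCC047 by 0.86 (SE 0.20, adjusted p = 0.00101) and in 93VU147T by 0.71 (SE 0.20, adjusted p = 0.00637). With the COL12A1 probe set chosen by the ratio of deviations, the SCC047 change was 0.23 and was not called. COL16A1, a fibril-associated collagen, rose in SCC25 and SQ20B by 0.35 and 0.33 and changed by -0.56 (SE 0.10, adjusted p = 3.73e-05) in SCC047. COL13A1, a transmembrane collagen, changed by -0.27 (SE 0.09, adjusted p = 0.025) in SQ20B, and 2 of its 3 probe sets had that sign. This COL13A1 call was lost without SQ20B control replicate 1 (-0.21), cetuximab replicate 2 (-0.25) or cetuximab replicate 3 (-0.21), and with the mean of the probe sets (-0.13).

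Of the proteoglycans, LUM rose in SCC25 from 7.69, 7.61 and 7.32 to 9.15, 9.61 and 9.27, by 1.80 (SE 0.15, adjusted p = 7.68e-10). It was also called higher in SQ20B and SCC61, by 0.50 and 0.67, with every array below 5.13. DCN and BGN, or decorin and biglycan, rose in SCC25 by 0.45 and 0.55 and changed in 93VU147T by -0.35 and -0.42, all called. VCAN had group means below 5.13 in all lines, with 1 array above it, SCC090 control replicate 1 at 5.46. A second VCAN probe set had a control mean of 5.35 in SCC090 and 3.82 to 4.14 in the other lines. With cetuximab it changed by -1.08 in SCC090, where all 5 VCAN probe sets had a negative change. These other probe sets were not tested.

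Among the matricellular genes, TNC rose in 3 lines and SPARC fell in 2. TNC rose in SCC047 from 4.53, 4.71 and 4.96 to 6.44, 6.16 and 5.87, by 1.43 (SE 0.22, adjusted p = 4.61e-06). In 93VU147T it rose from 8.12, 8.28 and 8.44 to 9.74, 9.68 and 9.52, by 1.37 (SE 0.22, adjusted p = 1.05e-05), and in SCC61 by 0.74 (SE 0.22, adjusted p = 0.0068). SCC25, which has the most TNC, changed by -0.33 (SE 0.22, adjusted p = 0.379), which was not called. SPARC had a negative change in 6 of 6 lines and was called in SCC61 and 93VU147T. In 93VU147T it went from 5.17, 5.24 and 5.14 to 3.69, 3.91 and 3.94, a change of -1.34 (SE 0.17, adjusted p = 3.44e-07), near or below the mark of a dim signal. In SCC61 the control arrays read 4.74, 4.55 and 5.69, and the change was -0.88 (SE 0.17, adjusted p = 8.81e-05). In SCC047, the line rich in SPARC, the change was -0.31 (SE 0.17, adjusted p = 0.171). The second SPARC probe set, which was not tested, changed there by -0.66 from a control mean of 7.63. THBS2, or thrombospondin 2, rose in SCC047 by 0.89 (SE 0.10, adjusted p = 2.04e-08), and its changes in the other lines lay between -0.10 and 0.00. POSTN, or periostin, fell in SCC61, with a change of -0.85 (SE 0.15, adjusted p = 1.61e-05), from a control mean of 5.19 that was close to the mark of a dim signal.

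FBN1 rose in SQ20B from 7.26, 7.34 and 7.10 to 8.99, 9.02 and 8.85, by 1.72 (SE 0.13, adjusted p = 9.67e-12), in all 3 of its probe sets. It rose in SCC61 by 0.53 (SE 0.13, adjusted p = 0.00138). FBN2 rose in 93VU147T by 0.70 (SE 0.18, adjusted p = 0.00274) and in SCC61 and SCC047 by 0.51 and 0.63. With the mean of its 3 probe sets the FBN2 change in 93VU147T was 0.16 and was not called, and a second, dimmer FBN2 probe set changed by -0.26, -0.90 and -0.95 in 93VU147T, SCC61 and SCC047. FBLN1, or fibulin 1, which binds microfibrils and basement membranes, rose in SCC25 and SQ20B by 0.44 and 0.59 and changed by -0.48 and -0.55 in SCC047 and 93VU147T, all called.

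Among the crosslinking enzymes, PLOD2, a lysyl hydroxylase that prepares collagen for crosslinks, was higher with cetuximab in 6 of 6 lines and called in 5. In SCC61 it went from 8.83, 9.14 and 8.93 to 9.78, 10.21 and 9.89, a change of 1.00 (SE 0.14, adjusted p = 3.22e-07). In 93VU147T it rose by 0.68 (SE 0.14, adjusted p = 0.000188), and in SCC090, the line without a call, it changed by 0.16 (SE 0.14, adjusted p = 0.713). LOXL4 went in SQ20B from 7.50, 7.30 and 7.55 to 10.13, 9.99 and 10.16, by 2.65 (SE 0.09, adjusted p = 1.07e-19), or 6.26-fold. In SCC047 it went the other way, from 10.03, 9.96 and 9.70 to 8.20, 8.18 and 8.27, a change of -1.68 (SE 0.09, adjusted p = 1.94e-14). The second LOXL4 probe set changed by -0.01 in SQ20B and -0.05 in SCC047. LOXL2 rose in SCC61 by 1.08 (SE 0.11, adjusted p = 1.10e-09) and fell in SCC047, with a change of -0.58 (SE 0.11, adjusted p = 8.94e-05). Of the 4 LOXL2 probe sets 2 had the sign of the rise in SCC61, and all 4 that of the fall in SCC047.

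The protease inhibitor TIMP2 rose in SCC25 from 9.26, 9.15 and 9.08 to 10.14, 9.92 and 10.05, by 0.87 (SE 0.13, adjusted p = 1.13e-05), and in SQ20B by 2.23-fold (SE 0.13, adjusted p = 2.12e-08). It was lower in SCC61, SCC047 and 93VU147T, with changes of -0.43, -0.41 and -0.69. All 3 probe sets of TIMP2 had these signs in these 5 lines, and in none did control and cetuximab arrays overlap. TIMP3, an inhibitor held in the matrix, rose in SQ20B by 1.36 (SE 0.09, adjusted p = 2.05e-13) and changed in SCC047 by -0.52 (SE 0.09, adjusted p = 2.28e-05). TIMP1 was lower in 6 of 6 lines and was called in SQ20B, at -0.54 (SE 0.11, adjusted p = 0.000122), and in SCC047, at -0.30. In SQ20B, where 20 of 41 members were called higher, the ACTB probe sets for the 3′ and 5′ ends, a sign of RNA quality, shifted by 0.29 log2 units with cetuximab, against at most 0.11 in the other lines. The part of that shift in the SQ20B results was not tested.

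**Figure D5:**
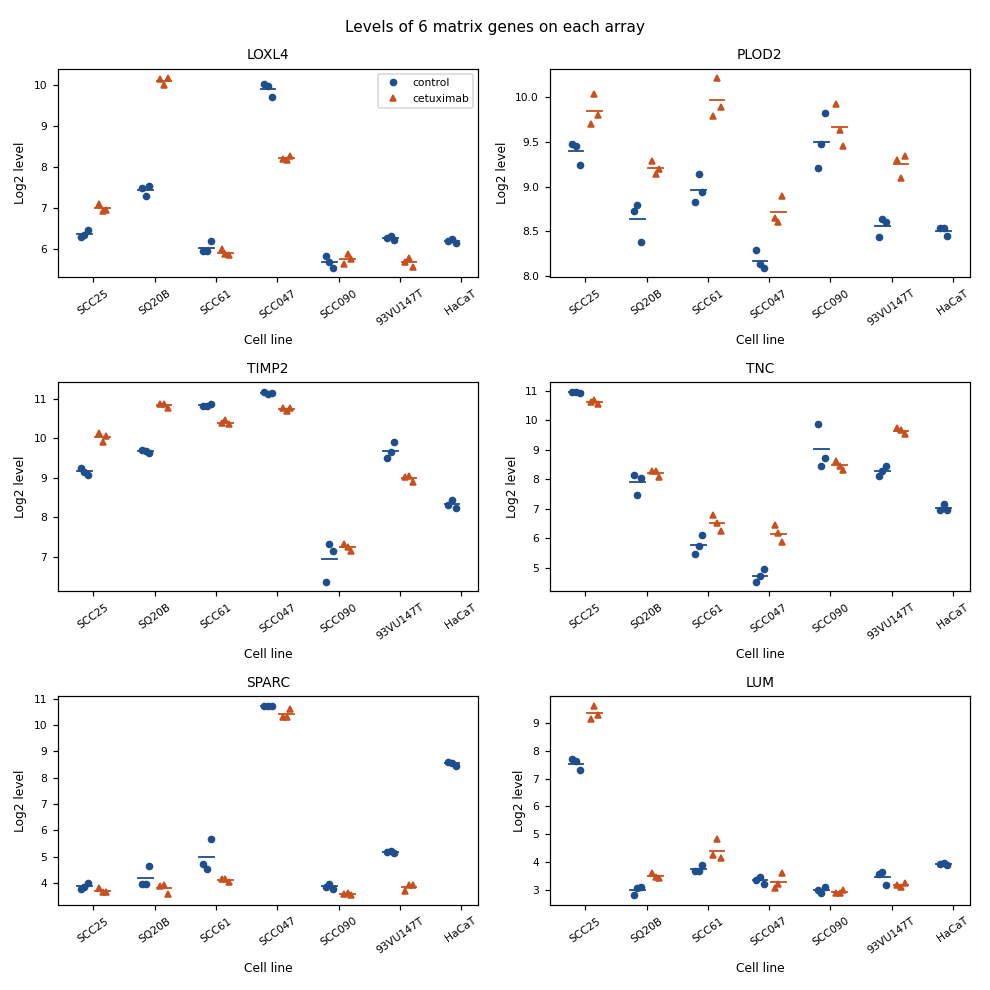
Log2 levels of LOXL4, PLOD2, TIMP2, TNC, SPARC and LUM on each control (circles) and cetuximab (triangles) array by line, with bars at means of the arrays. LOXL4 rises in SQ20B and falls in SCC047, and PLOD2 means are higher with cetuximab in all 6 lines.

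For the mean of the 6 lines, 20 members were higher and 12 lower, against 22.8% and 23.1% of all genes. The largest rises were PLOD2 at 0.57 (SE 0.06, adjusted p = 1.14e-09), COL5A2 at 0.50 (SE 0.05, adjusted p = 3.14e-09) and TNC at 0.49 (SE 0.09, adjusted p = 3.97e-05). The TNC call was lost with the mean of its 3 probe sets, which gave 0.086. LUM and COL1A1 followed at 0.43 and 0.38, with positive changes in 3 and 4 of 6 lines, and the COL1A1 value holds for 3 of its 5 probe sets by sign. The largest falls were SPARC at -0.56 (SE 0.07, adjusted p = 1.32e-07) and COL8A1 at -0.43 (SE 0.05, adjusted p = 6.90e-08), the latter negative in 3 of 6 lines. COL4A1, COL4A2 and TIMP1 followed at -0.30, -0.29 and -0.26.

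The change was more positive in the HPV-negative than in the HPV-positive lines for 18 members and more negative for 4, against 22.3% and 14.9% of all genes. The error here comes from arrays, and each side is a mean of 3 lines. These lines did not move alike, since the median change of the members was 0.18 in SCC25, 0.31 in SQ20B and -0.11 in SCC61. It was -0.07 in SCC047, -0.04 in SCC090 and -0.06 in 93VU147T, so SCC61 lay below every HPV-positive line. LOXL4 differed by 1.79 (SE 0.08, adjusted p = 1.92e-17), with line changes of 0.63, 2.65 and -0.12 on the HPV-negative side and -1.68, 0.06 and -0.59 on the other. LUM differed by 1.12 (SE 0.12, adjusted p = 7.61e-09) and COL1A1 by 1.07 (SE 0.11, adjusted p = 1.51e-09), the latter with the same sign in 3 of 5 probe sets. In the other direction were COL8A1 at -0.88 (SE 0.11, adjusted p = 5.54e-08), TNC at -0.51 (SE 0.18, adjusted p = 0.0256) and POSTN at -0.35 (SE 0.12, adjusted p = 0.021), where the POSTN change was -0.85 in SCC61 and between -0.16 and 0.07 in the other lines. The POSTN call was lost with replicate number as a block. Among the 6 lines LUM was above 5.13 in SCC25 alone and COL8A1 in SQ20B and SCC61 alone. Both were thus dim in every HPV-positive line, where a fall could hardly be read.

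Further matrix genes outside the 41 members, taken from 6 wider lists, moved in both directions, beside 22.8% of all genes higher and 23.1% lower. For the mean of the 6 lines, 4 of 28 further matrix glycoproteins were higher and 8 lower, 5 and 8 of 18 collagen biosynthesis and processing genes, 2 and 4 of 13 further basement membrane genes, 3 and 4 of 16 matrix receptors, 1 and 2 of 10 further interstitial collagens, and 2 and 3 of 7 genes of the TGF-beta arm. CCN2, a secreted connective tissue growth factor, had the largest fall, with a change of -1.23 (SE 0.10, adjusted p = 1.49e-11) and a negative sign in 6 of 6 lines. MATN2, or matrilin 2, rose by 0.85 (SE 0.05, adjusted p = 2.55e-14), with a positive sign in 6 of 6 lines. ITGB5, an integrin subunit that binds vitronectin, was lower in 6 of 6 lines, at -0.70 (SE 0.05, adjusted p = 7.96e-12). LOX, the lysyl oxidase that crosslinks collagen and elastin, rose by 0.30 (SE 0.07, adjusted p = 0.000453). PCOLCE2, an enhancer of procollagen processing, changed by -0.23, COL7A1, the collagen of anchoring fibrils, by 0.35, and LAMB3 by -0.19. SDC1, or syndecan 1, changed by 0.27, COL9A3 and COL9A1 by 0.14 and -0.13, and TGFBR1 and TGFB1 by 0.25 and -0.30, all called. For TGFBR1 2 of 3 probe sets had this sign, and the COL9A1 call was lost with quantile normalization (-0.097).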

How the data were processed

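RNA of 8 cell lines was hybridised to 42 Affymetrix hgu133plus2.0 arrays, 3 per group. Probe set values on the log2 scale were deposited after normalization by fRMA. The methods list pSVA, a batch correction, as well, and no source used here says whether the deposited numbers went through it. Values were taken as deposited, from 2.62 to 14.5, with array medians from 5.09 to 5.16. Array values carry no read depth, and the number of arrays limits precision. Of 54675 probe sets 41091 carry 1 gene symbol, 1801 several and 11721 none listed, and 62 are controls. Gene identifiers matched RefSeq for 41037. Names of 13 genes on the lists had no such probe set and were not analysed here.

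The cetuximab contrasts used limma 3.58.1 under R 4.3.3 on 36 arrays, with 12 group means and 24 residual degrees of freedom. The untreated fit used 20 values, 7 line means and 13 residual degrees of freedom. Benjamini-Hochberg adjustment covered 19775 genes, and calls were made at 0.05. SCC1 arrays entered no comparison. Scripts were tested on simulated data, and figures were drawn with matplotlib 3.10.9.

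Members and lists were chosen with earlier results of these data known. Named genes are the 2 members of each list with the widest untreated range, the 3 largest called rises and falls per line with no overlap of arrays, the 5 largest of each in the mean of lines, the 3 largest of each in the HPV difference, the largest called genes of the wider lists, and the type IV collagen pairs. THBS1, FSTL1 and other members outside this rule were named after their values were seen. Alternatives were other probe set choices, centring, quantile normalization, a filter on dim genes, an intensity trend, a replicate block and leaving out each array.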

Additional observations from a re-analysis of the deposited data

Results flagged for a closer look

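The change with cetuximab differed among the 6 lines, by limma's moderated F test across all genes, for 9 of the 10 members named in the mean of the lines. Of all genes 59% passed this test, and the 10 were picked by the size of their mean changes in the same data. The adjusted p-values were 6.77e-11 for COL1A1, 3.66e-10 for COL8A1, 2.64e-09 for LUM, 5.31e-08 for COL5A2, 1.46e-06 for TNC, 2.28e-06 for COL4A2, 1.32e-05 for COL4A1, 0.000572 for SPARC and 0.0131 for PLOD2. PLOD2 and SPARC kept 1 sign in all 6 lines, so their difference is in size.

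Between the HPV-negative and the HPV-positive lines, limma's contrast of the changes gave differences of 1.79 log2 units for LOXL4, 1.12 for LUM, 1.07 for COL1A1, -0.884 for COL8A1, -0.51 for TNC and -0.353 for POSTN, with 3 lines on each side. LUM and COL8A1 were below 5.13 in every HPV-positive line. COL8A1 changed by -0.93 in SQ20B and -1.72 in SCC61, which express it, and by -0.06 to 0.07 elsewhere. LUM changed by 1.80 in SCC25, which expresses it, and by 0.50 and 0.67 in SQ20B and SCC61, where it was dim. In the HPV-positive lines LUM changed by -0.29 to -0.05, so its difference rests in part on dim values. The COL1A1 difference was -0.071 with the probe set chosen by the ratio of deviations.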

How the results depend on the processing

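Of 1632 recomputed cetuximab values of named genes, 1618 kept their direction and their side of the threshold, 9 no longer passed and 5 reversed. Genes of the wider lists were included. Only the changes by which a gene was chosen under the naming rule were recomputed. Other changes given above, as of COL5A2 and TIMP2 in SQ20B or FBN2 in SCC61, and untreated values of single genes were not. Leaving out single arrays gave 1239 of the 1618. With probe sets chosen by the ratio of deviations, 51 values were kept and 1 no longer passed. All 5 reversals came with probe sets chosen by the ratio of deviations, which gave -0.20 for COL1A1 and 0.040 for COL13A1 in SQ20B, -0.093 for COL1A1 and -0.066 for TGFBR1 in the mean of lines, and -0.071 for COL1A1 in the HPV difference. With the mean of all probe sets of a gene, called members were 9 in untreated SQ20B (14 as reported), 8 in untreated 93VU147T (13) and 5 in HaCaT (9). The fibrillar minus basement membrane change was 0.1726 with the filter on low values (0.087 as reported). The replicate block gave 2 members in SCC090 (0 as reported), moved no other count of members by over 1.5 times, and left the POSTN HPV difference, at -0.35, short of the threshold. Same-numbered arrays were not treated as pairs in the main fit. Their deviations had correlations from -0.15 to 0.32, over 0.1 in 7 of 18 pairs, and whether they shared a preparation was not tested.

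With each array left out in turn, called members numbered 11 to 15 in SCC25, 20 to 23 in SQ20B, 18 to 22 in SCC61, 16 to 18 in SCC047, 0 to 10 in SCC090 and 17 to 21 in 93VU147T. They numbered 27 to 32 in the mean, 22 to 25 in the HPV difference and 34 to 39 in the test among lines. Untreated counts ran from 16 to 17 in SCC25, 14 to 16 in SQ20B, 16 to 17 in SCC61, 17 to 18 in SCC047, 22 to 23 in SCC090 and 8 to 9 in HaCaT, and stayed at 13 in 93VU147T and 40 in the F test. The fibrillar minus basement membrane change ran from 0.0469 to 0.113, and 2 to 3 lines had the higher untreated fibrillar median. The causes were not tested. Values near the dim end of the arrays, as for SPARC and LUM in several lines, limit what can be read from their changes.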

Other observations

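SCC1 has arrays after cetuximab alone, so its matrix levels are given as values. SPARC had a mean of 10.31 ± 0.13 (SD, n = 3) in treated SCC1, and 10.41 ± 0.17 in treated SCC047. THBS2 had a mean of 8.82 ± 0.10 there, above the 7.44 ± 0.16 of treated SCC047, the next highest treated line. TNC was dim, at 4.13 ± 0.10, and COL12A1 read 4.95 ± 0.28, with 3.89 ± 0.28 in treated SCC090 and at least 8.27 in the other treated lines. THBS1 read 7.76 ± 0.36, between treated SCC090 at 4.29 ± 0.29 and the other treated lines, which had means of at least 9.23. The SCC1 arrays lie in a batch apart from the other treated arrays, so batch and line cannot be told apart.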
